A study of Mus musculus with 24 samples.

Results

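The mouse receptors for the Fc part of IgG, encoded by Fcgr1, Fcgr2b, Fcgr3 and Fcgr4, and their common signalling chain, encoded by Fcer1g, were followed on 24 Affymetrix expression arrays of bone marrow-derived macrophages. Members were all probe sets whose annotation gives only 1 of these 5 symbols, which found 10 of 45033 probe sets and 5 of 18193 genes. Fcgr2b had 5 probe sets, Fcgr1 had 2, and Fcgr3, Fcgr4 and Fcer1g had 1 each. The cells came from male mice of 4 strains, and every strain carried a disrupted Il10 gene, the gene of an anti-inflammatory cytokine. CB-R1 (C3Bir.B6-Cdcs1 Il10-/-) had the C3H/HeJBir background with a long chromosome 3 element of C57BL/6J that holds Cdcs1, a colitis susceptibility locus. C3Bir (C3H/HeJBir-Il10tm1Cgn) and B6 (C57BL/6J-Il10tm1Cgn) were the parental strains. BC-R3 (B6.C3Bir-Cdcs1 Il10-/-) was the converse congenic strain, B6 with Cdcs1 taken from C3Bir. Cells of each strain were grown for 6 days, and those labelled flagellin had 1 µg/mL of the commensal flagellin Cbir1 for 4 h, against medium alone in those labelled unstimulated. Each RNA sample pooled 3 wells, and each of the 8 groups had 3 arrays from 3 mice per genotype.

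Fc gamma receptors bind IgG that coats microbes or forms immune complexes. In mouse macrophages the products of Fcgr1, Fcgr3 and Fcgr4 activate: they pair with the Fcer1g chain, whose ITAM motif recruits the kinase Syk and leads to phagocytosis and cytokine release. The product of Fcgr2b carries an inhibitory ITIM motif that recruits the phosphatase SHIP, encoded by Inpp5d, so the balance of both kinds sets the threshold for immune complexes.

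In the RefSeq gene table of GRCm38.p6, Fcgr2b, Fcgr4 and Fcgr3 follow each other on chromosome 1 with 0 other protein-coding genes between them. Fcer1g follows on the same chromosome after 7 other protein-coding genes. Fcgr1 lies on chromosome 3, the chromosome of Cdcs1, and the labels do not say whether the exchanged segments include it. The promoter windows of the receptor genes are shown because these genes varied in different directions across the strains. Each window runs from 250 bases before to 50 bases after the annotated start, 5′ to 3′ on the gene's strand, from RefSeq (GRCm38.p6). They lie at chr3:96293920-96294219 (Fcgr1, minus strand), chr1:171018676-171018975 (Fcgr4, plus strand), chr1:171059354-171059653 (Fcgr3, minus strand) and chr1:170976022-170976321 (Fcgr2b, minus strand). Capitals mark matches to 3 motifs searched on both strands: TTCNNNGAA (GAS, the gamma interferon activation site), GAAA followed by any 2 bases and GAAA (the core of the interferon-stimulated response element) and GAGGAA (the core of PU.1, a factor that defines macrophages).
Fcgr1: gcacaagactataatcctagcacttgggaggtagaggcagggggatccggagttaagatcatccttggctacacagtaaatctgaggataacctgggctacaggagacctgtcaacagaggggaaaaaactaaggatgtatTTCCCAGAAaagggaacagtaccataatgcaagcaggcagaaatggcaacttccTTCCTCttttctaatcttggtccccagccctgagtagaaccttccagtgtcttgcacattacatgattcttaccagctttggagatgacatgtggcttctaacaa
Fcgr4: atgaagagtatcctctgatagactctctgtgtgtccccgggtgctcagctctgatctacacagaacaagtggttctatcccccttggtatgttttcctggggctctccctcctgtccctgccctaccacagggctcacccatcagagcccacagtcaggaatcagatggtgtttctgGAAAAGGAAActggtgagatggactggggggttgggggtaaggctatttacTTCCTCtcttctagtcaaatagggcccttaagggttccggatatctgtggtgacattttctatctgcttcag
Fcgr3: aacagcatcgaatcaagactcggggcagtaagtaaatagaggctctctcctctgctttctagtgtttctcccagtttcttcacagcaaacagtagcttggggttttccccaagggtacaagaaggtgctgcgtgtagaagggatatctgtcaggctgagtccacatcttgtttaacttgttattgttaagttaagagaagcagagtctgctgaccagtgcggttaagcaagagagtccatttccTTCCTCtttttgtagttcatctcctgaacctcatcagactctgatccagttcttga
Fcgr2b: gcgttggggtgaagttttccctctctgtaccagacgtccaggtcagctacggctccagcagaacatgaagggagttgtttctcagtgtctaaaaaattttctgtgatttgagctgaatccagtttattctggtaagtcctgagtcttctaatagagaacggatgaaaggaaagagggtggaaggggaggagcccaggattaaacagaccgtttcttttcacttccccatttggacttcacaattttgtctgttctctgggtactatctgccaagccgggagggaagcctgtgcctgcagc
The Fcgr1 window held a GAS match, TTCCCAGAA, at -109 to -101 from the start, and a PU.1 core at -55 to -50. The Fcgr4 window held an interferon-stimulated response element core, GAAAAGGAAA, at -73 to -64 and a PU.1 core at -22 to -17. In Fcgr3 there was 1 PU.1 core, at -6 to -1, and the windows of Fcgr2b and Fcer1g held 0 of the 3 motifs. The 5 matches do not overlap each other. Of 27018 promoter windows of this length, 8.47% held the GAS motif, 3.49% the response element core and 28.3% the PU.1 core. A match describes letters only, and the table has 2 windows for Fcgr3, of which the first is used.

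**Figure D1:**
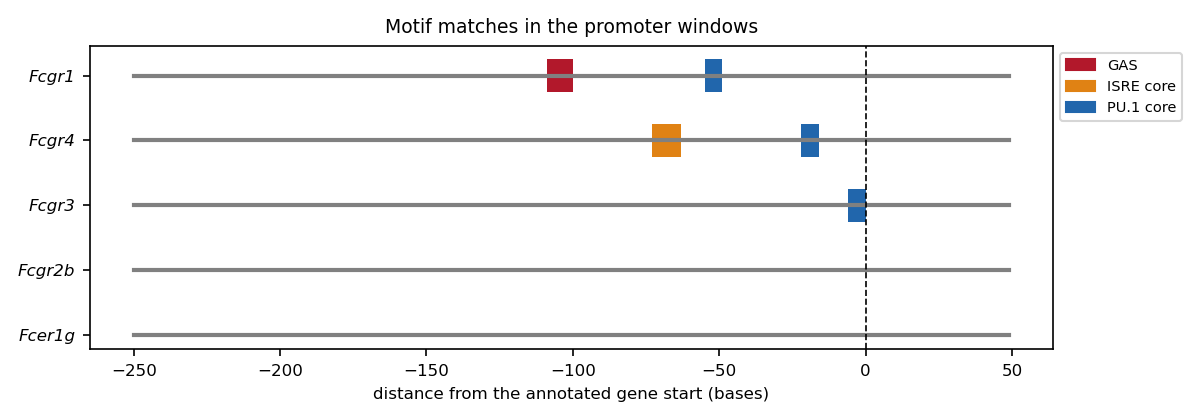
Matches to 3 motifs in the promoter windows of the 5 genes (x axis, distance from the annotated gene start in bases; grey lines, the windows; coloured boxes, matches). Fcgr1 and Fcgr4 hold 2 matches each, Fcgr3 holds 1 beside the start, and Fcgr2b and Fcer1g hold 0.

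Array medians lay between 6.55 and 6.64 on the log2 scale with within-group correlations of 0.987 to 0.998. The macrophage markers Csf1r, Cd68, Lyz2 and Lgals3 were at 13.48 to 14.59 on all arrays, while Cd163 was at 3.80 to 4.50, below the lower quartile of every array. The Il10 probe set gave 6.36 to 8.70, and its position relative to the disruption was not examined. Among the arrays labelled unstimulated, arrays 2 and 3 of B6 and C3Bir stood apart. Their mean over 18 inflammatory cytokine genes was 8.71 to 10.1, against 7.39 to 8.28 on the other 8 unstimulated arrays and 7.59 to 8.09 on the 12 flagellin arrays. These are called the 4 high arrays below. Leaving them out keeps 1 unstimulated array each in C3Bir and B6, which is then assumed to vary like the other groups, so values without them rest on single arrays there. Most neutrophil markers were also high in these cultures. The mean over 10 measured markers was 10.54 to 12.06, with S100a8 at 12.80 to 13.94 and Ngp at 12.59 to 14.01. Of the 10, 9 lay above the upper quartile on all arrays and 0 below the lower quartile on all arrays. The exception was Cxcr2, at 6.23 to 7.21, around the array medians.

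Fcgr1 encodes the receptor with high affinity for IgG, and its level split the C3Bir arrays. Its more intense probe set had log2 values of 11.66, 11.50 and 12.14 with flagellin and 11.37, 11.48 and 12.06 unstimulated in CB-R1 (arrays 1, 2 and 3). In C3Bir the values were 11.77, 10.41 and 10.36 with flagellin and 11.67, 10.08 and 9.85 unstimulated. Array 1 of both C3Bir groups thus lay within the CB-R1 range, and the other 4 C3Bir arrays lay below every CB-R1 and BC-R3 array. BC-R3 had 10.94, 11.01 and 10.98 with flagellin and 11.06, 11.42 and 11.35 unstimulated. B6 had 11.48, 10.06 and 11.18 with flagellin and 11.45, 11.25 and 11.24 unstimulated. Array 2 of B6 flagellin was low, and the other B6 arrays overlapped those of BC-R3. The mean over 15 macrophage markers was 11.44 and 11.41 on array 1 of C3Bir flagellin and unstimulated, against 11.06 to 11.26 on the other 4 C3Bir arrays, while the mean over 10 neutrophil markers was 11.79 and 11.70 on array 1, against 10.97 to 11.34 on those 4. The part of either in the split was not tested. The order of group means ran from CB-R1 flagellin, 11.77 ± 0.33, to C3Bir unstimulated, 10.53 ± 0.99 (SD, n = 3 each), and of the neighbours in that order BC-R3 unstimulated and BC-R3 flagellin alone did not overlap. The other Fcgr1 probe set followed the first with r = 0.96 over the 24 arrays.

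Fcgr4 encodes an activating receptor for IgG2a and IgG2b. It varied less, over a range of 0.85, and was lowest in C3Bir. It had 10.84, 10.74 and 10.85 with flagellin and 10.73, 10.87 and 11.06 unstimulated in CB-R1. In C3Bir it had 10.69, 10.57 and 10.39 with flagellin and 10.67, 10.29 and 10.22 unstimulated. The C3Bir unstimulated arrays lay below all unstimulated arrays of the other strains. BC-R3 had 10.64, 10.80 and 10.74 with flagellin and 10.79, 10.93 and 10.73 unstimulated. B6 had 10.83, 10.66 and 11.00 with flagellin and 10.86, 10.87 and 10.95 unstimulated. In the order of the 8 group means, from B6 unstimulated at 10.90 ± 0.05 to C3Bir unstimulated at 10.39 ± 0.24 (SD, n = 3 each), all neighbours overlapped.

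Fcgr3 encodes the activating receptor with low affinity for IgG, and its level differed between strains in both conditions. CB-R1 had 12.28, 12.16 and 12.15 with flagellin and 12.51, 12.35 and 12.24 unstimulated. C3Bir had 12.41, 12.03 and 12.15 with flagellin and 12.31, 11.72 and 11.66 unstimulated. With flagellin, each array of these strains lay above each array of BC-R3 and B6. BC-R3 had 11.46, 11.42 and 11.59 with flagellin and 11.52, 12.05 and 12.11 unstimulated. B6 had 11.58, 11.44 and 11.72 with flagellin and 11.37, 10.91 and 10.66 unstimulated. B6 unstimulated arrays 2 and 3, which belong to the 4 high arrays, had the lowest Fcgr3 values of all 24 arrays. From CB-R1 unstimulated at 12.37 ± 0.13 down to B6 unstimulated at 10.98 ± 0.36 (SD, n = 3 each), neighbouring groups overlapped except BC-R3 flagellin and B6 unstimulated.

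Fcgr2b, the gene of the inhibitory receptor, was highest where Fcgr3 was lowest. By its most intense probe set CB-R1 had 10.76, 10.56 and 10.60 with flagellin and 11.09, 10.69 and 10.74 unstimulated. C3Bir had 11.08, 10.65 and 10.55 with flagellin and 11.24, 11.09 and 11.12 unstimulated. In both strains array 1 of each condition was the highest of its group. BC-R3 had 10.39, 10.35 and 10.83 with flagellin and 11.19, 10.53 and 10.45 unstimulated. B6 had 10.94, 10.64 and 10.87 with flagellin and 11.26, 11.86 and 11.90 unstimulated. Each B6 unstimulated array lay above every other array, arrays 2 and 3 most clearly. Group means ran from 11.67 ± 0.36 in B6 unstimulated to 10.52 ± 0.27 in BC-R3 flagellin (SD, n = 3 each), and B6 unstimulated alone was free of overlap with its neighbour. Of the 5 probe sets, 4 lay above the upper quartile on all arrays and correlated with each other at 0.94 to 0.99 over the 24 arrays, while the fifth lay below the lower quartile on all arrays, at 3.74 to 4.09. The probe set used here has a name ending that marks possible cross-binding to related transcripts, and Fcgr2b and Fcgr3 have closely related sequence outside the cell membrane, so probe sets of these genes may share signal.

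Fcer1g, the gene of the ITAM chain on which the activating receptors depend, was nearly flat. It had 13.22, 13.20 and 13.20 with flagellin and 13.17, 13.21 and 13.18 unstimulated in CB-R1. In the other strains its values were 12.93 to 13.20, so all 24 arrays lay within 0.29 on the log2 scale. Its probe set had a higher mean than 99.6% of probe sets, and how close such values are to saturation is not known from the table.

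**Figure D2:**
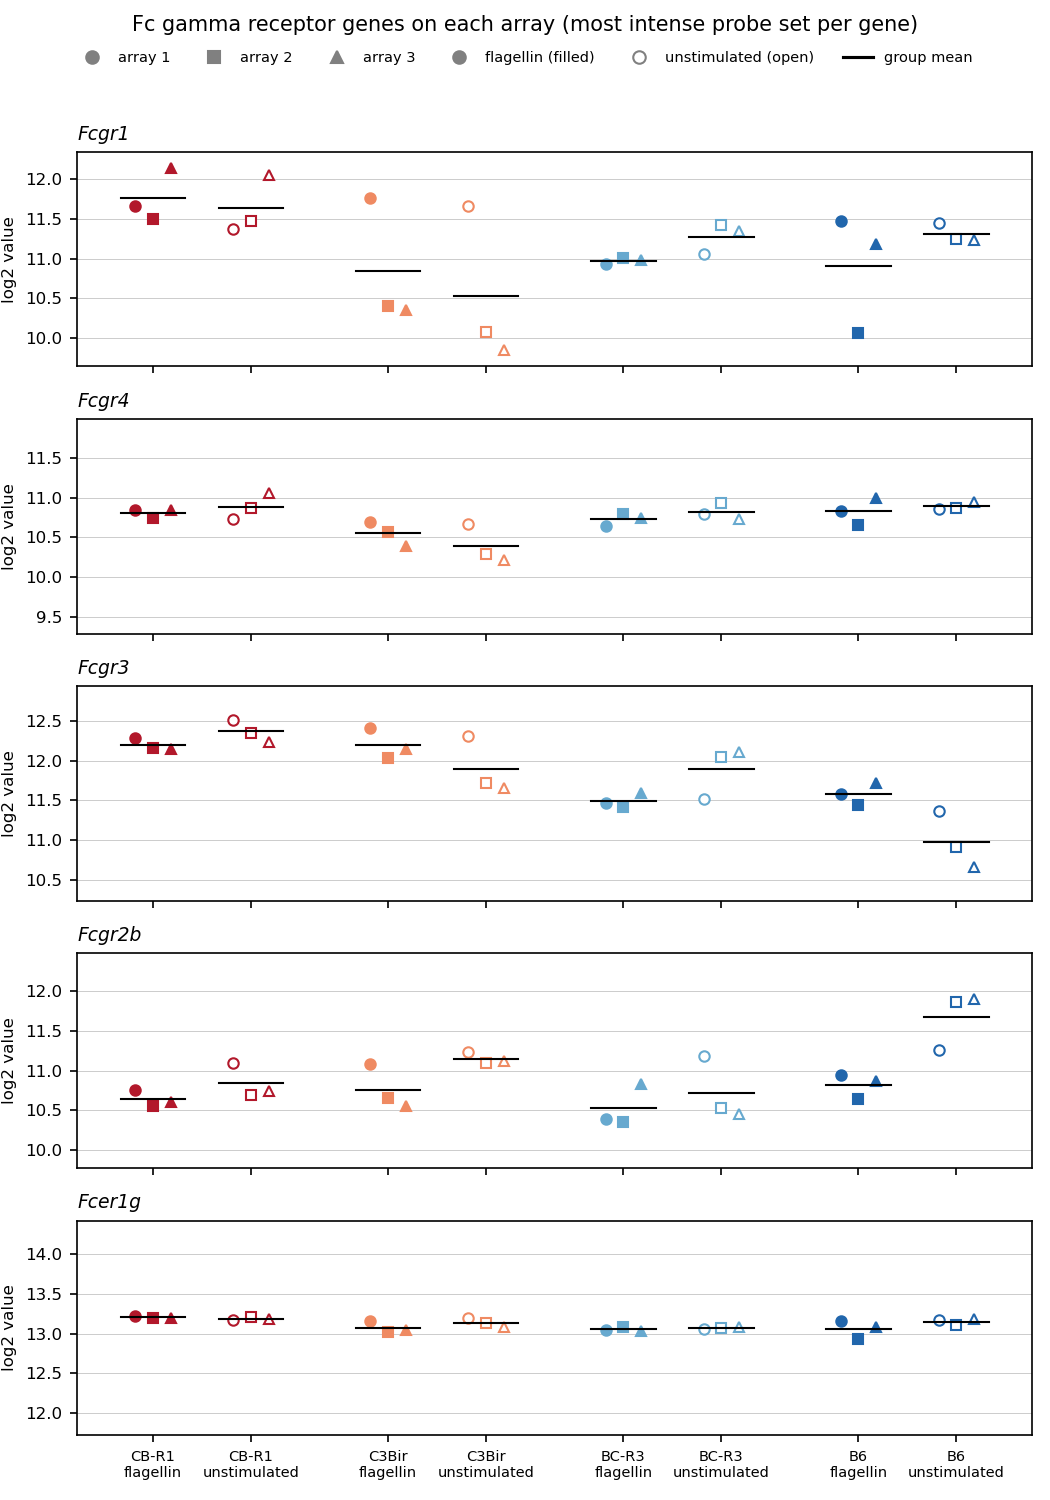
Log2 value of the most intense probe set of each gene on each of 24 arrays (y axis, same span of 2.7 log2 units in all panels; x axis, strain and condition; symbols, arrays 1 to 3; black lines, means of 3 arrays). With flagellin Fcgr3 is higher in CB-R1 and C3Bir than in BC-R3 and B6, while unstimulated C3Bir and BC-R3 overlap. Fcgr2b is highest in B6 unstimulated, Fcgr1 splits the C3Bir arrays and Fcer1g is nearly flat.

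The background comparisons asked which receptor genes differ between the C3Bir and the B6 genetic background. Fcgr3 was 1.60-fold higher on the C3Bir background (mean of CB-R1 and C3Bir against mean of BC-R3 and B6, over both conditions), with a log2 difference of 0.68 ± 0.09 (SE; limma adjusted p = 7.56e-06). Fcgr4 was 1.12-fold lower, at -0.16 ± 0.06 (adjusted p = 0.0464). These were 2 of the 5 genes, where 26.1% of all genes were called, and the Fcgr4 call was fragile. It was lost in 17 of the 24 fits that left out 1 array (adjusted p up to 0.0927), after quantile normalization (-0.12, adjusted p = 0.172), with the additive and random replicate blocks (adjusted p = 0.0581 and 0.0545) and without the 4 high arrays (-0.08, adjusted p = 0.453). Fcgr1 differed by 0.08 (95% interval -0.35 to 0.50), Fcgr2b by -0.09 (-0.29 to 0.11) and Fcer1g by 0.07 (0.01 to 0.13, adjusted p = 0.0999). In bulk RNA, fewer cells of a type and less RNA per cell cannot be told apart.

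Neutrophils carry the products of Fcgr3 and Fcgr4 too, and their markers moved with the background. All 10 measured neutrophil markers of 12 listed were higher on the C3Bir background, with a median log2 difference of 0.67, against 0.02 over all genes. The mean over them was 11.92 to 12.06 in CB-R1 flagellin, 10.97 to 11.79 in C3Bir flagellin, 11.09 to 11.20 in BC-R3 flagellin and 10.54 to 11.35 in B6 flagellin. On unstimulated arrays it was 11.82 to 12.03 in CB-R1, 11.10 to 11.70 in C3Bir, 10.54 to 11.31 in BC-R3 and 10.62 to 11.24 in B6. Over the 24 arrays, which share strains and groups, Fcgr3 correlated with that mean at r = 0.63. The pairs of strains varied in this. In C3Bir against BC-R3 with flagellin Fcgr3 was higher by 0.71, with 0 of 10 neutrophil markers called and a median of 0.09. In CB-R1 against B6, unstimulated, Fcgr3 was higher by 1.39, and most of the markers were higher, as given below. With 3 arrays per group, markers that are not called are not thereby shown to be equal. The part of these cells in the Fcgr3 difference was not tested.

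Pairs of strains that share the origin of Cdcs1 gave the background difference in each condition. In CB-R1 against B6, unstimulated, Fcgr3 was 2.62-fold higher (1.39 ± 0.18, adjusted p = 1.67e-05) and Fcgr2b was 1.78-fold lower (-0.83 ± 0.19, adjusted p = 0.00309), 2 of 5 genes where 29.9% of all genes were called. There 8 of 10 neutrophil markers were higher, with a median of 0.74. Without the 4 high arrays Fcgr2b stood at -0.42 (adjusted p = 0.481), and the Fcgr3 call held. With flagellin, where 8.04% of all genes were called, Fcgr3 was called alone of the 5, at 0.62 ± 0.18 (adjusted p = 0.0387), and Fcgr2b differed by -0.18 (95% interval -0.58 to 0.23). That Fcgr3 call was lost on leaving out any one of 5 arrays (adjusted p up to 0.130). In C3Bir against BC-R3, unstimulated, Fcgr4 was lower by 0.43 (-0.43 ± 0.11, adjusted p = 0.0235), 1 of 5 genes where 7.39% of all genes were called. Fcgr3 did not separate that pair, at 0.00 (95% interval -0.37 to 0.37). With flagellin, where 5.6% of all genes were called, Fcgr3 was called alone, at 0.71 ± 0.18 (adjusted p = 0.0223, up to 0.104 without 1 array). The Fcgr4 call was lost without the 4 high arrays (-0.15, adjusted p = 0.727).

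The parental strains differ in background and in Cdcs1 together. In C3Bir against B6, unstimulated, Fcgr3 was 1.89-fold higher (0.92 ± 0.18, adjusted p = 0.00176) and Fcgr4 was 1.42-fold lower (-0.51 ± 0.11, adjusted p = 0.00447), 2 of 5 genes where 15.6% of all genes were called. Fcgr2b stood at -0.52 ± 0.19 (adjusted p = 0.0796) and Fcgr1 at -0.78 ± 0.41 (adjusted p = 0.240). The other Fcgr1 probe set stood at -0.99 ± 0.38 (adjusted p = 0.0957), and without C3Bir unstimulated array 1 the first stood at -1.35 (adjusted p = 0.0249). Without the 4 high arrays the sign of the first turned, to 0.22, with 1 array left on each side. With flagellin, where 6.3% of all genes were called, Fcgr3 was called alone, at 0.62 ± 0.18 (adjusted p = 0.0456). That call did not hold under 17 of the 24 fits that left out 1 array, although the difference stayed at 0.51 to 0.70. Without the 4 high arrays, with 1 array left on each side, the unstimulated difference of Fcgr3 was 0.94 (adjusted p = 0.0698) and that of Fcgr4 was -0.19 (adjusted p = 0.805). Neutrophil markers were called higher for 2 of 10 unstimulated and for 0 of 10 with flagellin.

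The congenic strains tested the Cdcs1 region on each background. In BC-R3 against B6, unstimulated, Fcgr2b was 1.93-fold lower (-0.95 ± 0.19, adjusted p = 0.00222) and Fcgr3 was 1.89-fold higher (0.92 ± 0.18, adjusted p = 0.00179), 2 of 5 genes where 29.1% of all genes were called. All 4 bright Fcgr2b probe sets passed, at -0.80 to -0.95, where 26.5% of all probe sets did. Cytokine and interferon-stimulated genes moved with these, 15 of 18 and 25 of 26 lower, and neutrophil markers had a median of -0.21 with 1 of 10 higher. Without the 4 high arrays, with 1 B6 array left, Fcgr2b stood at -0.54 (adjusted p = 0.421) and Fcgr3 at 0.52 (adjusted p = 0.325). With flagellin 0 of the 5 genes passed limma, and 0 of the 10 probe sets had an unadjusted p under 0.05, where 0.0165% of all genes were called. There Fcgr2b differed by -0.29 (95% interval -0.70 to 0.11) and Fcgr3 by -0.09 (-0.46 to 0.28). CB-R1, which carries the B6 element with Cdcs1, differed from B6 unstimulated in the same directions, by -0.83 for Fcgr2b and 1.39 for Fcgr3. The unstimulated differences from B6 were thus not particular to strains with the C3Bir region.

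On the C3Bir background the B6 element was compared in CB-R1 against C3Bir. Unstimulated, Fcgr4 was 1.41-fold higher in CB-R1 (0.50 ± 0.11, adjusted p = 0.0450), 1 of 5 genes where 0.682% of all genes were called. Markers of other cells moved with this pair: the neutrophil mean was 11.82 to 12.03 in CB-R1, against 11.10 to 11.70 in C3Bir, and the stromal mean was 8.15 to 8.57 in CB-R1, against 7.20 to 7.74 in C3Bir. Of these 10 neutrophil and 10 stromal markers 0 passed limma one by one, with medians of 0.52 and 0.87, and their part in the Fcgr4 difference was not tested. Fcgr1 had the largest difference of the 5 genes, 1.10 ± 0.41 (95% interval 0.25 to 1.95), with an adjusted p of 0.193. Without C3Bir unstimulated array 1 that difference was 1.67 (adjusted p = 0.00898), so the result for Fcgr1 turned on 1 array. Without the 4 high arrays, which leaves array 1 alone in C3Bir unstimulated, the Fcgr1 difference was -0.03. The Fcgr4 call was lost in 16 of the 24 fits that left out 1 array, with differences of 0.41 to 0.64, and without the 4 high arrays it was 0.22 (adjusted p = 1.00). With flagellin 0 of 5 genes passed limma, 4 of 10 probe sets had an unadjusted p under 0.05, and 0.055% of all genes were called. Fcgr1 then stood at 0.92 ± 0.41 (adjusted p = 0.558) and Fcgr4 at 0.26 ± 0.11 (adjusted p = 0.530).

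Averaged over backgrounds and conditions, the C3Bir allele of Cdcs1 went with lower Fcgr4, at -0.24 ± 0.06 (adjusted p = 0.0410), 1 of 5 genes where 1.3% of all genes were called. That call was lost in 15 of the 24 fits that left out 1 array (adjusted p up to 0.0916), with a random replicate block (adjusted p = 0.0559) and without the 4 high arrays (-0.16, adjusted p = 0.510). By background, Fcgr4 stood at -0.38 ± 0.08 on the C3Bir background and at -0.09 ± 0.08 on the B6 background. Averaged in the same way, Fcgr1 stood at -0.50 ± 0.20 (95% interval -0.92 to -0.07, adjusted p = 0.224). Whether the allele effect differed between the backgrounds was tested with a contrast added after the values were seen. CB-R1 carries a long B6 element of chromosome 3, whose extent need not match that of the C3Bir segment in BC-R3. The average above joins both segments, and in the added contrast a difference of background cannot be told apart from one of the exchanged segment. For Fcgr2b the C3Bir allele gave 0.21 ± 0.14 on the C3Bir background and -0.62 ± 0.14 on the B6 background, a difference of 0.84 ± 0.19 (adjusted p = 0.0176). Of the other bright Fcgr2b probe sets 2 passed, at 0.87 and 0.68, and 1 did not, at 0.49 (adjusted p = 0.0718). For Fcgr3 it gave -0.24 ± 0.13 and 0.41 ± 0.13, a difference of -0.65 ± 0.18 (adjusted p = 0.0329), a call that was lost in 15 of the 24 fits that left out 1 array (adjusted p up to 0.0709). These were 2 of 5 genes where 10.5% of all genes, and 7.99% of all probe sets, were called. Without the 4 high arrays the differences were 0.67 (adjusted p = 0.449) for Fcgr2b and -0.25 (adjusted p = 0.689) for Fcgr3. Fcgr1 gave -1.01 ± 0.29 on the C3Bir background and 0.02 ± 0.29 on the B6 background (difference -1.03 ± 0.41, adjusted p = 0.120). For Fcgr4 the difference between the backgrounds was -0.29 ± 0.11 (adjusted p = 0.109).

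**Figure D3:**
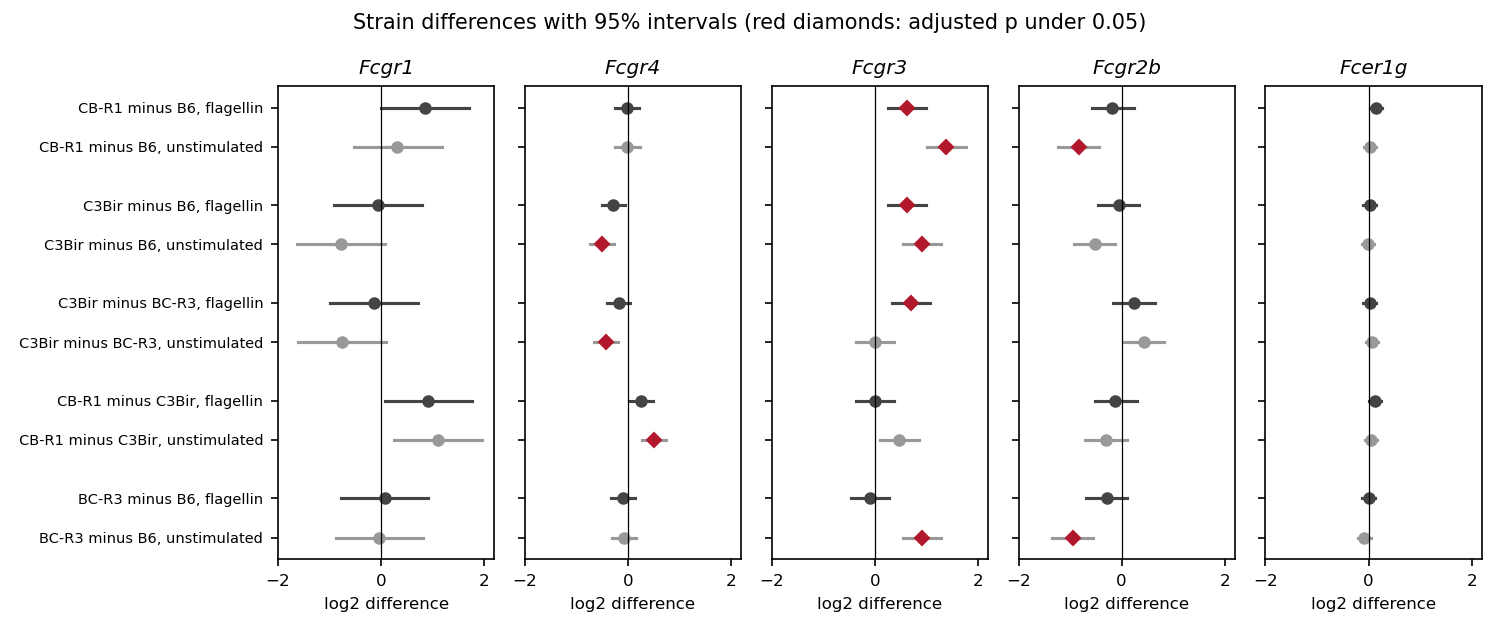
Log2 differences between strains with 95% intervals for the most intense probe set of each gene (x axis; rows, the pair and condition; red diamonds, adjusted p under 0.05; 3 arrays per group). Fcgr3 is right of 0 in CB-R1 against B6 in both conditions, at 0.62 and 1.39, and Fcgr2b passed in CB-R1 and BC-R3 against B6 unstimulated, at -0.83 and -0.95.

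The flagellin comparison asked what the stimulus changed within a strain. In B6 flagellin went with lower expression of the inhibitory receptor gene and higher expression of an activating one. Fcgr2b fell by 0.85 on the log2 scale (-0.85 ± 0.19, 1.81-fold, adjusted p = 0.00771), and the other 3 bright probe sets stood at -0.75 to -0.86. Fcgr3 rose 1.52-fold (0.60 ± 0.18, adjusted p = 0.0271). These were 2 of 5 genes where 20.2% of all genes, and 17.2% of all probe sets, were called. Fcgr1, Fcgr4 and Fcer1g did not pass, at -0.41 (95% interval -1.26 to 0.45), -0.07 (-0.30 to 0.17) and -0.10 (-0.22 to 0.02).

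Both calls in B6 depended on single arrays. Without B6 unstimulated array 2 or 3 Fcgr2b stood at -0.76 and -0.74 (adjusted p = 0.0546 and 0.0582) and Fcgr3 at 0.57 and 0.44 (adjusted p = 0.103 and 0.161). The Fcgr3 call was also lost without B6 flagellin array 1 (0.60, adjusted p = 0.0730) or 3 (0.53, adjusted p = 0.0862). A fit of the B6 arrays alone, which leaves the differences the same by construction, lost both calls (adjusted p = 0.136 for Fcgr2b and 0.148 for Fcgr3). Without the 4 high arrays Fcgr2b stood at -0.44 (adjusted p = 0.763) and Fcgr3 at 0.21 (adjusted p = 0.840). In the same comparison 26 of 26 interferon-stimulated genes and 11 of 18 cytokine genes were lower with flagellin, while 0 of 10 neutrophil and 0 of 15 macrophage markers passed.

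In C3Bir, BC-R3 and CB-R1 0 of the 5 genes passed limma with flagellin, and 0% of all genes did. At an unadjusted p under 0.05 there were 2, 1 and 1 of the 10 member probe sets. Fcgr2b differed by -0.39 (95% interval -0.79 to 0.01) in C3Bir, -0.20 (-0.60 to 0.20) in BC-R3 and -0.20 (-0.60 to 0.20) in CB-R1. Fcgr3 differed by 0.30 (-0.07 to 0.67) in C3Bir, -0.40 (-0.77 to -0.03) in BC-R3 and -0.17 (-0.54 to 0.20) in CB-R1. A fit without array 1 of the unstimulated C3Bir, BC-R3 and B6 groups, chosen from the data, made the Fcgr3 difference 0.51 in C3Bir (adjusted p = 0.0112) and -0.59 in BC-R3 (adjusted p = 0.00662). The other exclusion, of the 4 high arrays, keeps array 1 alone in C3Bir unstimulated. The sign of the Fcgr3 difference in C3Bir then turned, to -0.11.

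Whether strains differed in their flagellin change was tested on the difference itself. The change of Fcgr3 was lower in BC-R3 than in B6 (-1.0 ± 0.25 on the log2 scale, adjusted p = 0.0274), since it was -0.40 in BC-R3 and 0.60 in B6. It was 1 of 5 genes where 8.99% of all genes were called. The call was lost in 7 of the 24 fits that left out 1 array (adjusted p up to 0.0879) and without the 4 high arrays (-0.61, adjusted p = 0.487). Fcgr2b had a difference of 0.66 ± 0.27 (adjusted p = 0.123) in that pair. Between C3Bir and B6 and between CB-R1 and C3Bir 0 of 5 genes passed limma, 0% of all genes did, and 0 and 1 of the 10 member probe sets had an unadjusted p under 0.05.

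**Figure D4:**
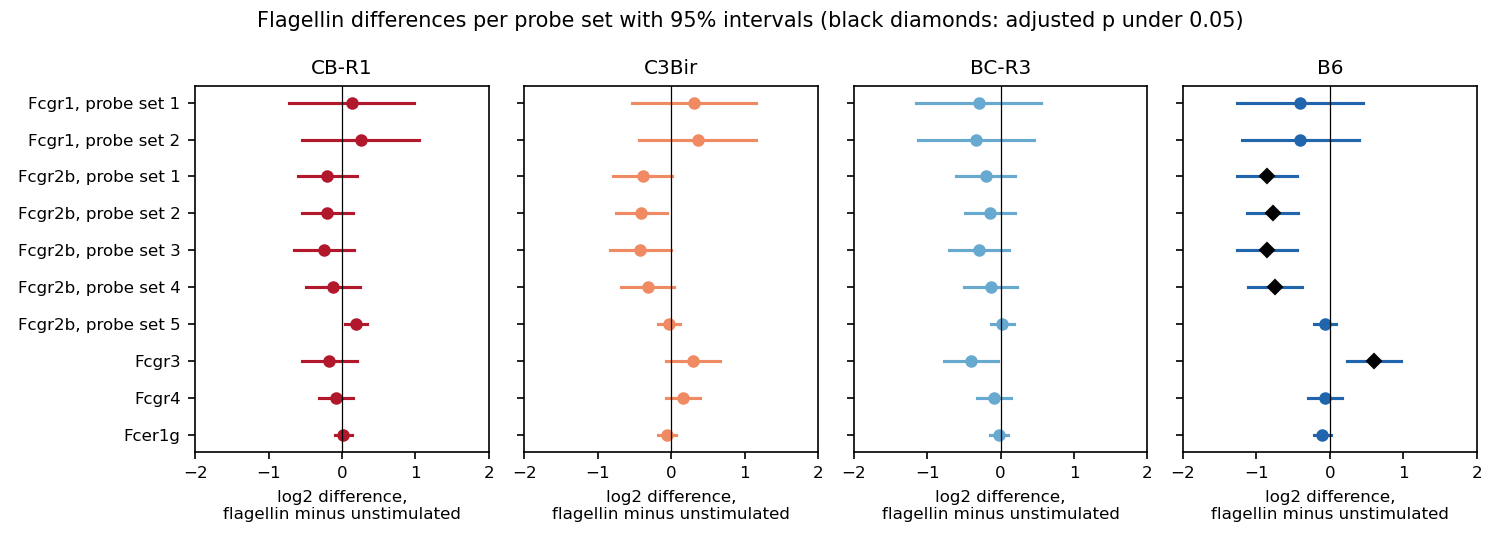
Log2 difference between flagellin and unstimulated arrays for the 10 probe sets in each strain, with 95% intervals (x axis; rows, probe sets; black diamonds, adjusted p under 0.05; 3 arrays per group). In B6 the 4 bright Fcgr2b probe sets lie at -0.75 to -0.86 and Fcgr3 at 0.60, and 0 probe sets passed in the other strains.

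The levels of Fcgr2b and Fcgr3 had correlations of opposite sign with the cytokine genes. Over the 24 arrays, which share strains, conditions and normalization, Fcgr2b correlated with the mean of the 18 cytokine genes at r = 0.80 and with the mean of 26 interferon-stimulated genes at r = 0.79. For Fcgr3 the values were -0.81 and -0.54. By Spearman's rho, in which the 2 extreme B6 arrays weigh less, Fcgr2b stood at 0.49 and Fcgr3 at -0.79 with the cytokine mean, and at 0.61 and -0.26 with the interferon-stimulated mean. Fcgr2b and Fcgr3 correlated at -0.50 with each other (rho -0.17), and at -0.22 after each group's mean was subtracted. Fcgr1 and Fcgr4 correlated with each other at 0.76, and at 0.81 within groups. With the interferon-stimulated mean Fcgr1 stood at 0.32 and Fcgr4 at 0.30. Fcgr1 and Fcer1g correlated at 0.70, and at 0.79 within groups.

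**Figure D5:**
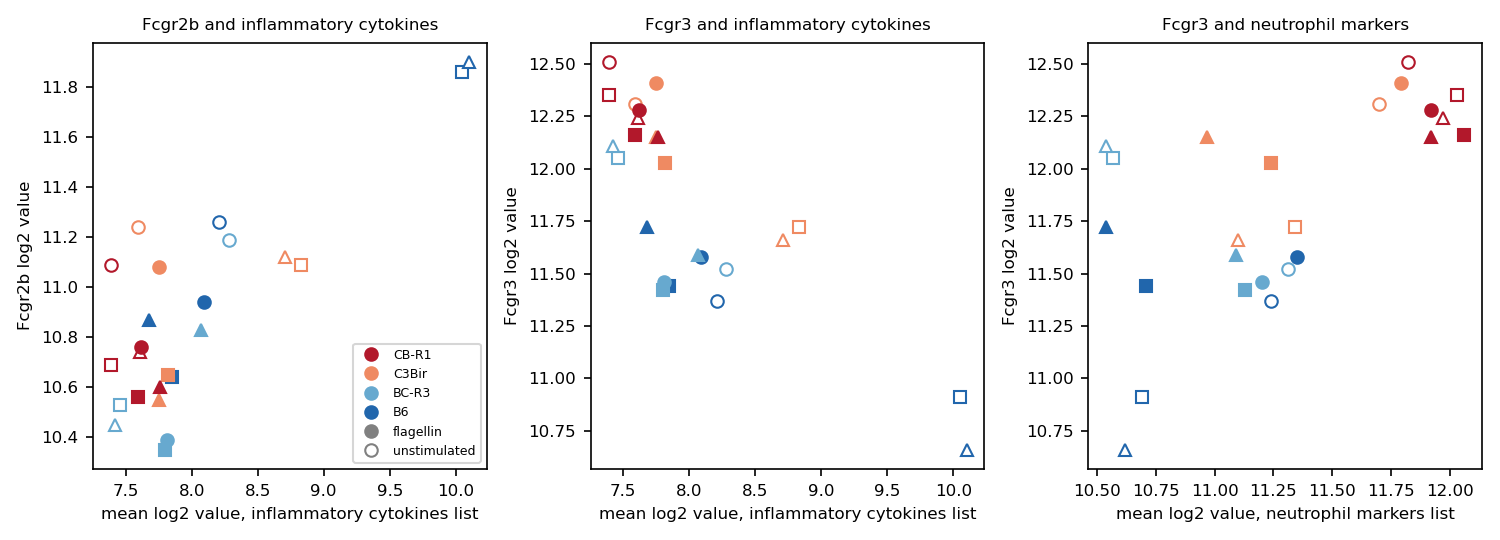
Log2 value of Fcgr2b and Fcgr3 against the mean log2 value of 18 cytokine genes, and of Fcgr3 against the mean of 10 neutrophil markers, on 24 arrays (points; colours, strains; filled, flagellin; open, unstimulated). The B6 unstimulated arrays with cytokine means of 10.05 and 10.1 have the highest Fcgr2b and the lowest Fcgr3, and the CB-R1 arrays have high Fcgr3 and high neutrophil markers.

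The genes whose level was most like each member were found by Pearson's r over the 24 arrays among 13592 genes with a mean log2 value of at least 6. For Fcgr3 they were Dhrs3, a retinaldehyde reductase (0.972), Slc29a3, a lysosomal nucleoside transporter (0.968), and Tec, a tyrosine kinase (0.963). For Fcgr2b they were Mgat4a, a glycosyltransferase (0.885), Gbp6, an interferon-inducible GTPase (0.879), and Batf2, a transcription factor (0.875). For Fcgr1 they were Ptpro, a receptor tyrosine phosphatase (0.942), Frmd4b (0.932) and Hmox2, a haem oxygenase (0.931). For Fcgr4 they were Cnp (0.810), Snx2, a sorting nexin (0.805), and Ptpn22, a phosphatase of immune cells (0.797). For Fcer1g they were Ifitm3, an antiviral membrane protein (0.881), Lgals3bp (0.820) and Ms4a6b (0.816).

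The signalling genes downstream of the receptors were described by lists. In B6 with flagellin 7 of 12 genes of inhibitory Fc signalling rose and 0 fell, with a median of 0.43 against -0.02 over all genes, of which 20.2% were called. In this comparison 0 of the 45033 probe sets were called without the 4 high arrays, against 7768 with them, so all calls of these lists end there. Among them were Inpp5d, the SHIP phosphatase recruited by the Fcgr2b product, at 1.28 ± 0.31 (adjusted p = 0.0112), Cd300a, an inhibitory receptor, at 0.85 ± 0.19 (adjusted p = 0.00769), and Dok2, an adaptor, at 0.54 ± 0.13 (adjusted p = 0.0123). So in this comparison Inpp5d rose while Fcgr2b fell. Of 19 genes of activating Fc signalling 4 rose and 3 fell, among them Lat2, an adaptor, at 0.78 ± 0.16, Lcp2, the SLP-76 adaptor, at -1.21 ± 0.31, and the kinase Src at -1.35 ± 0.40. Of 12 receptors and adaptors that pair with Fcer1g or the related Tyrobp 3 rose, namely Sirpb1a at 0.87 ± 0.29, Trem2 at 0.47 ± 0.10 and Clec4n, the Dectin-2 gene, at 0.46 ± 0.14. Of 11 other Fc receptor genes Fcrl1 rose by 0.63 ± 0.15 and 2 fell, among them Trim21, the cytosolic antibody receptor, at -1.77 ± 0.31. In the other 3 strains 0 genes of these lists passed.

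By background, where 26.1% of all genes were called, 1 of 11 other Fc receptor genes was higher and 2 were lower. Fcgrt, the neonatal Fc receptor that recycles IgG, was higher by 1.05 ± 0.14 (adjusted p = 5.93e-06), Fcrl1, a receptor-like gene of B cells, was lower at -1.21 ± 0.08 (adjusted p = 2.39e-10) and Trim21 was lower at -0.66 ± 0.16. Of the inhibitory list 1 gene was higher and 4 of 12 were lower, among them Pirb, an ITIM receptor, at -0.74 ± 0.08 (adjusted p = 2.64e-07) and Ptpn6, the SHP-1 phosphatase, at -0.26 ± 0.09. Of the activating list 5 of 19 were higher and 2 lower, including the GTPase gene Rac2 at 0.35 ± 0.04 and Lcp2 at -0.74 ± 0.16. Of the receptors that pair with Fcer1g or Tyrobp 5 of 12 were higher and 3 lower, including Trem3 at 0.43 ± 0.07, Clec4e, the Mincle gene, at -0.81 ± 0.27 and Sirpb1a at -1.05 ± 0.14. For the Cdcs1 allele, where 1.3% of all genes were called, the same 4 lists had 2 higher and 1 lower gene, Cbl at 0.22 ± 0.05, Clec4d at 0.16 ± 0.04 and Trem3 at -0.30 ± 0.07. For genes with 1 probe set, Fcgr3 and Fcgr4 among them, a DNA difference between strains where the probes bind cannot be told apart from a difference in expression.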

How the data were processed

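Per the labels' protocols, total RNA was reverse transcribed from oligo(dT), amplified, labelled with biotin and hybridised to Affymetrix arrays. Values deposited by the authors are on a log2 scale, inferred from their range, for 45037 probe sets on 24 arrays; 4 probe sets had no values. The summary and normalization methods are not given in the sources used here, and the values were used as deposited. Of the probe sets used 34944 had 1 gene symbol, 931 had several and 9158 had none; of a gene's probe sets the most intense on average stood for it.

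limma 3.58.1 in R 4.3.3 fitted the 8 group means over all 24 arrays and 45033 probe sets (16 residual degrees of freedom), with eBayes and two-sided tests. Benjamini-Hochberg adjustment was applied within each of 20 contrasts, and an adjusted p under 0.05 was called; a share of all genes called is over the 18193 representative probe sets. The fit was tested on simulated data. The number of arrays limits the precision, and the labels do not tie a replicate number to a mouse, so the tests rest on array-to-array spread, which may be technical. The members and the 13 other gene lists (185 genes, 165 measured, the rest not analysed here) were chosen with earlier results of these data known. Named genes were the members, the 3 genes most like each, and up to 3 called genes per list with the largest differences. Alternatives were quantile normalization, median centring, a filter (log2 of at least 6 on at least 3 arrays), 1 probe set or the mean per gene, eBayes with trend and robust options, the compared arrays alone, replicate blocks, and leaving out each array. Added after seeing the data were 2 exclusions of arrays and the contrast of the allele effect between backgrounds.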

Additional observations from a re-analysis of the deposited data

Results flagged for a closer look

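Differences between groups in the same contrast were found for Fcgr3 and Fcgr2b by tests of the difference itself. The flagellin change of Fcgr3 was lower in BC-R3 than in B6 (-1.0 on the log2 scale, adjusted p = 0.0274). That call was lost in 7 of the 24 fits that left out 1 array and with the compared arrays alone (adjusted p = 0.126). The contrast of the allele effect between backgrounds was added after the values were seen. The effect of the C3Bir allele of Cdcs1 on the C3Bir background minus that on the B6 background was 0.84 for the most intense Fcgr2b probe set (adjusted p = 0.0176). A pair of the other bright Fcgr2b probe sets gave 0.87 (adjusted p = 0.0158) and 0.68 (adjusted p = 0.0273), and the remaining one gave 0.49 (adjusted p = 0.0718). The call at 0.68 was lost in 7 of the 24 fits that left out 1 array. For Fcgr3 the allele contrast gave -0.65 (adjusted p = 0.0329), and the call was lost in 15 of the 24 fits that left out 1 array. The allele contrast cannot tell background apart from the exchanged chromosome 3 segment, which is a long B6 element in CB-R1. All 5 calls were lost without the 4 high arrays, where C3Bir and B6 keep 1 unstimulated array each. The Fcgr2b differences were then 0.67, 0.73 and 0.50 (adjusted p = 0.449, 0.418 and 0.508), and those of Fcgr3 were -0.61 for the flagellin change and -0.25 for the allele (adjusted p = 0.487 and 0.689).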

How the results depend on the processing

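Over 36 settings, 24 of them leaving out 1 array, 200 results of single probe sets were recomputed. Of 6850 recomputed values 6613 kept their side of the threshold, 170 lost the call, 66 gained one and 1 reversed; 158 values of uncalled results changed sign. The Fcgr3 calls for CB-R1 against B6 unstimulated (1.23 to 1.59 on leaving out 1 array) and for the average background (0.63 to 0.73) held under each setting. The other called results each lost their call under at least 1 setting. Fcgr3 in C3Bir against BC-R3, unstimulated, at 0.00, became -0.39 (adjusted p = 0.0387) without the 3 arrays apart, which are array 1 of the unstimulated C3Bir, BC-R3 and B6 groups. The cause was not tested, and both exclusions were chosen from the data.

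The number of member genes called moved as follows. After quantile normalization it was 0 for CB-R1 against C3Bir and for C3Bir against BC-R3, both unstimulated, and 2 for CB-R1 against B6 with flagellin. After median centring it was 0 for C3Bir and for CB-R1 against B6 with flagellin, and with trend and robust options 0 for C3Bir against B6 with flagellin. With the compared arrays alone, where the spread rests on fewer arrays, it was 0 for the flagellin change in B6, the change in BC-R3 against B6, and these unstimulated pairs: CB-R1 against C3Bir, C3Bir against BC-R3, and each of C3Bir and BC-R3 against B6. Without the 4 high arrays it was 0 for those 6 comparisons, the average allele and the allele difference, and 1 for CB-R1 against B6 unstimulated and the average background. Without the 3 arrays apart it was 1 for the flagellin change in C3Bir and in BC-R3 and for the change in CB-R1 against C3Bir. It was 2 for the change in BC-R3 against B6, and 3 for CB-R1 against C3Bir unstimulated and the average allele, and 4 for C3Bir against B6 and against BC-R3, unstimulated, and the allele difference. Leaving out 1 array gave 0 to 2 for the flagellin change in B6, 2 to 3 for C3Bir against B6 unstimulated, 0 to 1 for C3Bir and CB-R1 against B6 and C3Bir against BC-R3, each with flagellin, and for the average allele, 0 to 3 for CB-R1 against C3Bir unstimulated, 0 to 2 for C3Bir against BC-R3 unstimulated and the change in BC-R3 against B6, 1 to 2 for the average background and 1 to 4 for the allele difference.

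Over all strains same-numbered arrays were not taken as pairs, since 8 of 12 flagellin and unstimulated pairs correlated over 0.1 (-0.44 to 0.50). In C3Bir (0.29 to 0.45) and CB-R1 (0.22 to 0.50) each of the 3 pairs did, and with the replicate block within these strains 0 member genes were called, as without it; in C3Bir Fcgr3 stood at 0.30 (adjusted p = 0.582) and Fcgr2b at -0.39 (adjusted p = 0.585). With a replicate block as an additive term the average background gave 1 gene. With a random replicate block it gave 1 and the average allele 0, and the block correlation was 0.084. A replicate block of strain by number as a fixed term gives, between strains, contrasts of the flagellin change only, and moved no count of member genes.

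Over all 45033 probe sets, the 7768 calls of the flagellin change in B6 became 0 with the compared arrays alone or without the 4 high arrays and 1438 without B6 unstimulated array 3. Leaving out the 4 high arrays gave 3 calls, against 11939, in BC-R3 against B6 unstimulated, 2078, against 11281, in CB-R1 against B6 unstimulated, 448, against 6052, in C3Bir against B6 unstimulated, and 7, against 3598, for the allele difference. Without the 3 arrays apart they numbered 4559, against 264, in CB-R1 against C3Bir unstimulated, 4144, against 594, for the average allele, and 1878 and 1448, against 0, for the flagellin change in C3Bir and BC-R3. Quantile normalization gave 2037, against 3624, for the change in BC-R3 against B6. With the compared arrays alone there were 245, against 11939, in BC-R3 against B6 unstimulated. The additive replicate block gave 925 and the random one 296, against 594, for the average allele. With 1 value per gene, where 18193 are tested, counts were lower by construction, such as 4068 for the flagellin change in B6. Median centring moved the share of higher calls there to 69.0%, against 54.0%, and in BC-R3 against B6 for the flagellin change to 28.6%, against 41.1%. With flagellin it moved that share to 42.2%, against 52.8%, in C3Bir against B6, and to 40.2%, against 52.3%, in CB-R1 against B6.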

Other observations

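Other cell types that carry Fc receptors were measured by their markers. The mean over 8 mast cell and basophil markers was 6.52 to 6.72 in B6 with flagellin, against 6.79 to 6.93 in B6 unstimulated. Of these 8 genes 0 lay above the upper quartile on all arrays, and 0 below the lower quartile. Hdc, the histidine decarboxylase, ranged from 6.93 to 8.52 and fell in B6 with flagellin by 0.77 (-0.77 ± 0.18, adjusted p = 0.0094). Like the other calls of that comparison, this one depended on the 4 high arrays. Over the 24 arrays Fcgr2b correlated with the mean of the 8 markers at r = 0.69 (Spearman's rho 0.5), while the mast cell protease gene Mcpt4 was at 6.14 to 6.65. The mean over 7 B cell markers was 6.72 to 6.98 and that over 9 T and NK cell markers 6.27 to 6.63, near the array medians. The B cell mean joins unlike levels. Cd79a, of the B cell receptor, was at 5.44 to 5.96, while Blnk was at 11.24 to 12.07. Blnk was the 1 gene of the 7 above the upper quartile on all arrays. The mean over 10 stromal markers ranged more widely, from 7.08 to 8.73, and correlated with Fcgr2b at 0.07 and with Fcgr3 at -0.16.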
